A study of Homo sapiens with 10 samples.

Results

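The 10 genes described here encode SLC2A1 (GLUT1), the main glucose carrier of many cultured cells, and 9 enzymes of glycolysis: HK2, PFKP, ALDOA, GAPDH, PGK1, ENO1, PKM, LDHA and LDHB. They were chosen by Ensembl gene ID from the 20289 genes of the table, with no measured value in the rule, and all 10 were present. Each averaged at least 1 FPKM in both lines, so all 10 passed the filter on low values in each comparison given here. FPKM scales the fragments of a gene by the length of the gene and by the total mapped in its library, and it sets a gene against the rest of its own library.

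The values come from ribosome profiling, in which the short mRNA pieces shielded by ribosomes are sequenced, so that a level reflects mRNA abundance and translation together. The cells were PANC-1 and CFPAC-1, both established lines of human pancreatic ductal adenocarcinoma. Cells that survived imidazole ketone erastin (IKE), an erastin derivative that blocks cystine import and induces ferroptosis, were set against cells given DMSO at 0.1%, to look for regulators of ferroptosis. PANC-1 with 1 µM IKE had 4 libraries, PANC-1 with DMSO 2, CFPAC-1 with 10 µM IKE 2 and CFPAC-1 with DMSO 2. The lines share no IKE dose, and each kind of cell is represented by 1 line. The labels give 24 h of exposure, whereas the footprint protocol speaks of days, and which of them applies is not known. The labels also name DMEM and IMDM as culture media without tying either to a line, so the glucose supply of the libraries is not known. In these bulk lysates of surviving cells, fewer cells with a gene and fewer footprints per cell cannot be told apart.

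Glycolysis splits a molecule of glucose into pyruvate in the cytosol and yields ATP and NADH. Glucose enters through carriers such as SLC2A1, is trapped as glucose 6-phosphate by hexokinases such as HK2, and is committed to the pathway by phosphofructokinases such as PFKP. The later enzymes recover the ATP, and lactate dehydrogenase, built from LDHA and LDHB subunits, interconverts pyruvate and lactate. Many cancer cells, those of pancreatic ductal adenocarcinoma among them, take up much glucose and release lactate even with oxygen present. Glucose 6-phosphate also feeds the pentose phosphate pathway, a source of the NADPH that keeps glutathione reduced.

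Several of these genes are textbook targets of the hypoxia-inducible factor HIF-1, whose sites hold the core ACGTG or GCGTG. The 4 promoters shown were picked from the measured values. PGK1, LDHA and LDHB are among 7 genes that varied together across the PANC-1 libraries, and SLC2A1 did not follow them. HK2 and PFKP also lay outside the 7, and at least 1 promoter of each held such a core. Each of the 4 shown is the 250 bases before the gene's start on its own strand, from RefSeq (GRCh38.p14). It is in lower case with every ACGTG or GCGTG on either strand in capitals. The windows are PGK1 at chrX:78103998-78104247 (plus strand), LDHA at chr11:18394313-18394562 (plus strand), LDHB at chr12:21657843-21658092 (minus strand) and SLC2A1 at chr1:42958869-42959118 (minus strand).
PGK1: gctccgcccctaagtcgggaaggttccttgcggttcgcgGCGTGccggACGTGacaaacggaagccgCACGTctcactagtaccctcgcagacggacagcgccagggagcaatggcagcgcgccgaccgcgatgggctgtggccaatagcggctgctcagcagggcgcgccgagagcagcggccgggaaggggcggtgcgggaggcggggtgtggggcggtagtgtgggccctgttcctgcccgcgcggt
LDHA: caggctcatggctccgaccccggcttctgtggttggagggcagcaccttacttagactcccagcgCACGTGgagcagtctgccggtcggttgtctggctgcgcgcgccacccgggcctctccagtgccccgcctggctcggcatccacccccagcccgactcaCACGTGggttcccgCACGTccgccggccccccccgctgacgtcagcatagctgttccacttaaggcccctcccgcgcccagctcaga
LDHB: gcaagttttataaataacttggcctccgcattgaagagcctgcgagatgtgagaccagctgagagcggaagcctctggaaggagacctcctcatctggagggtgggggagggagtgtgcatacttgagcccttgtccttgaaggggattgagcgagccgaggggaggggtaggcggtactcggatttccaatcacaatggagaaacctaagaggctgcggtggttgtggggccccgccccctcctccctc
SLC2A1: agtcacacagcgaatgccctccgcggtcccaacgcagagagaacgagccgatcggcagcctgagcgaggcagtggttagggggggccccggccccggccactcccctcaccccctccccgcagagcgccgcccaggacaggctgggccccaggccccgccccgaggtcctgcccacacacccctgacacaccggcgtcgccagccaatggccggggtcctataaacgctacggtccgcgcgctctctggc
The PGK1 window held 3 matches and the LDHA window 5, where a CACGTG counts once on each strand, while the LDHB and SLC2A1 windows held 0. PKM, another of the 7 genes that varied together, held 0 in its window, which is not shown. All 10 genes matched the RefSeq table by symbol, with 17 windows because some have several starts. A match lay in 12 of the 17 windows (70.6%), against 15084 of 34943 windows of all genes (43.2%). Genes with several starts enter these shares more than once. LDHA has another window, not shown, with 1 match. These are letters in a window and not binding sites, footprints do not read promoters, and an empty window says nothing of a site elsewhere.

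The libraries were uneven in a way that bears on every PANC-1 value. Between 12933 and 14424 genes were above 0 per library. The 5th percentile of values above 0 was 0.25, 0.72, 0.42 and 0.87 FPKM in the PANC-1 IKE libraries (replicates 1 to 4), against 0.43 and 0.60 FPKM in PANC-1 DMSO replicates 1 and 2, and it was 0.25 to 0.29 FPKM in CFPAC-1. The values carry no read counts, so absolute depth is unknown. The 10 most abundant other genes took up 9.29%, 16.2%, 12.2% and 23.1% of all FPKM in the PANC-1 IKE libraries (replicates 1 to 4) and 8.51% and 8.58% in the DMSO libraries. No cell type marker could be checked, since the table pairs no ID with a name and the reference tables matched 0 of its IDs; the names of the 10 genes come from the rule that chose them.

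**Figure D1:**
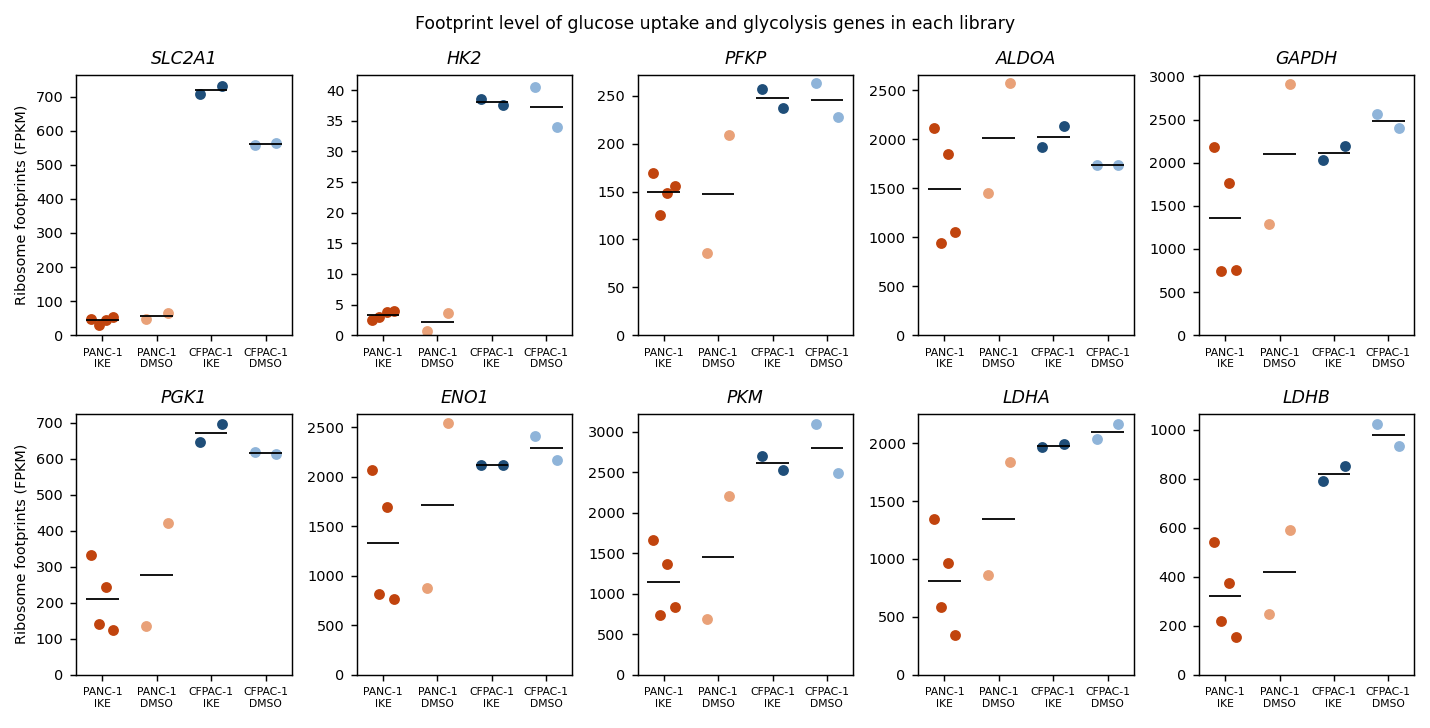
Footprint level in FPKM (linear axis from 0, its own scale in each panel) of the 10 genes in each library, with points for libraries in order of replicate number and a bar for the group mean. SLC2A1 and HK2 lie far lower in all 6 PANC-1 libraries than in the 4 CFPAC-1 libraries, while the abundant enzymes spread widely within both PANC-1 groups.

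The first comparison set untreated PANC-1 against untreated CFPAC-1. The carrier SLC2A1 and the hexokinase HK2 were lower in PANC-1, by the widest margins of the 10 genes. The abundant enzymes of the later steps differed less and did not pass the test. Other glucose carriers and hexokinases were not among the 10 genes and were not looked at. With limma, 2 of the 10 genes were called at an adjusted p under 0.05, both lower in PANC-1, where 33.6% of the 13125 genes tested were called and 18.5% were called lower. At an unadjusted p under 0.05 there were 5 of the 10, where 43.3% of the genes tested were. The median log2 difference of the 10 genes was -1.02, against -0.03 over all genes tested. The p-values and intervals of this comparison, and of the difference of IKE effects below, rest on a single spread pooled over both lines. The spreads were unequal: the median SD of log2 values around group means was 0.79 over the 10 genes in PANC-1 and 0.076 in CFPAC-1.

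Gene positions are those of RefSeq on GRCh38.p14. SLC2A1 (ENSG00000117394, chr1:42925353-42958868, minus strand), which carries glucose across the plasma membrane, stood at 48.3 and 63.8 FPKM in PANC-1 DMSO and at 559 and 564 FPKM in CFPAC-1 DMSO. The lines did not come near each other, and the log2 difference was -3.32 ± 0.30 (SE; limma adjusted p = 2.11e-05), a level 9.96-fold lower in PANC-1. HK2 (ENSG00000159399, chr2:74834127-74893359, plus strand), the hexokinase that binds the mitochondrial surface and is raised in many tumours, stood at 0.72 and 3.66 FPKM in PANC-1 DMSO and at 40.6 and 33.9 FPKM in CFPAC-1 DMSO. Its log2 difference was -3.75 ± 0.45 (SE; limma adjusted p = 0.000123). The size of this difference depends on the pseudocount, since the PANC-1 values were low: it was -4.40 with a pseudocount of 0.1 and -2.58 with 5. SLC2A1 and HK2 passed the threshold under each of the alternatives tried, those that left out a library included.

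The third gene of the upper pathway, PFKP (ENSG00000067057, chr10:3067548-3136805, plus strand), the platelet-type phosphofructokinase, had 85.7 and 209 FPKM in PANC-1 DMSO and 263 and 228 FPKM in CFPAC-1 DMSO. Its groups did not overlap, but the log2 difference of -0.87 ± 0.37 (SE) missed the threshold (limma adjusted p = 0.0974). PGK1, which makes ATP from 1,3-bisphosphoglycerate, had 135 and 420 FPKM in PANC-1 DMSO and 618 and 614 FPKM in CFPAC-1 DMSO, with a fitted log2 difference of -1.37 ± 0.55 (SE) at limma's adjusted p = 0.0832. PKM, the pyruvate kinase of most dividing cells, had 688 and 2207 FPKM in PANC-1 DMSO and 3103 and 2493 FPKM in CFPAC-1 DMSO, with a fitted log2 difference of -1.17 ± 0.54 (SE) at limma's adjusted p = 0.121. LDHB, the lactate dehydrogenase subunit of oxidative tissues, had 248 and 593 FPKM in PANC-1 DMSO and 1022 and 935 FPKM in CFPAC-1 DMSO, with a fitted log2 difference of -1.35 ± 0.56 (SE) at limma's adjusted p = 0.091. Each of these 4 genes was lower in both PANC-1 libraries than in both CFPAC-1 libraries. So was LDHA, at 859 and 1838 FPKM in PANC-1 DMSO and 2033 and 2163 FPKM in CFPAC-1 DMSO, and 7 of the 10 genes in all lay wholly below CFPAC-1, where 36.8% of genes did.

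ALDOA, GAPDH and ENO1 overlapped between the lines. ALDOA, the aldolase that cleaves fructose 1,6-bisphosphate, averaged 2013 ± 797 FPKM in PANC-1 DMSO and 1732 ± 1.0 FPKM in CFPAC-1 DMSO (SD, n = 2 each). GAPDH, which makes NADH and is often used to normalise other genes, averaged 2102 ± 1148 FPKM in PANC-1 DMSO and 2484 ± 113 FPKM in CFPAC-1 DMSO (SD, n = 2 each). ENO1, the enolase of most tissues, averaged 1709 ± 1184 FPKM in PANC-1 DMSO and 2290 ± 173 FPKM in CFPAC-1 DMSO (SD, n = 2 each). Their log2 differences of 0.16, -0.36 and -0.62 had 95% intervals of -0.80 to 1.12, -1.60 to 0.89 and -1.89 to 0.65, so a 2-fold lower level in PANC-1 lay outside the interval for ALDOA but inside it for GAPDH and ENO1. The count of 2 calls depended on the PANC-1 libraries: without PANC-1 DMSO replicate 2 it was 6, with PFKP, PGK1, PKM and LDHB added, and without replicate 1 it was 2. With library weights it was 5, with PFKP, PGK1 and LDHB added.

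**Figure D2:**
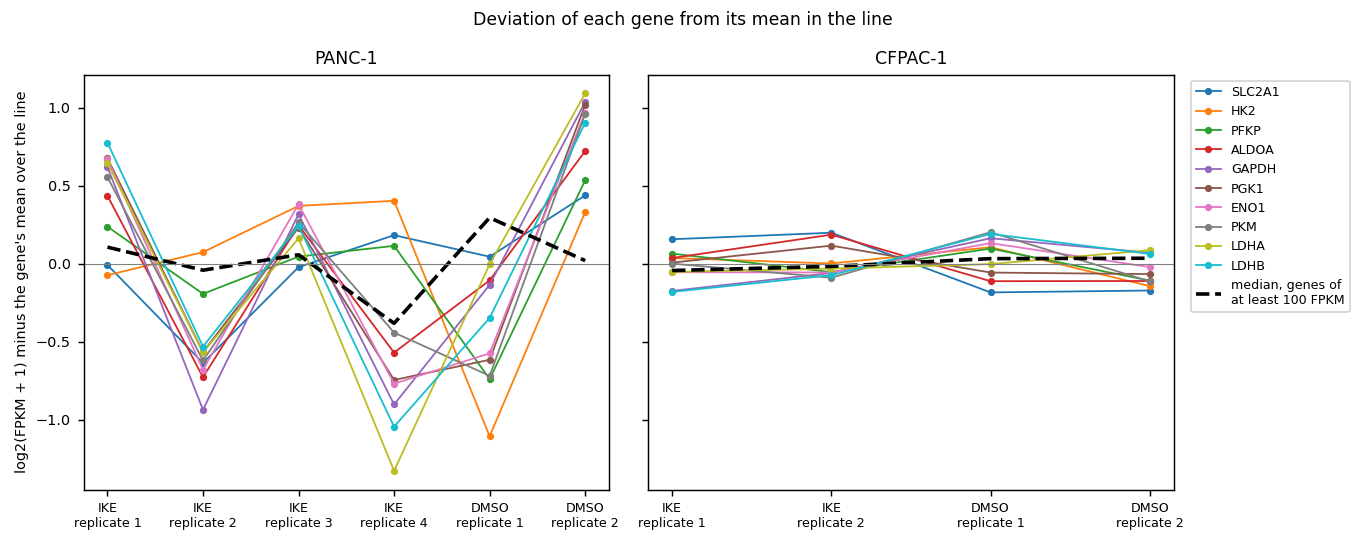
Each gene's log2(FPKM + 1) in a library minus its mean over the line, for 6 PANC-1 and 4 CFPAC-1 libraries; the thin lines only join the points of 1 gene, and the dashed line is the median over genes averaging 100 FPKM or more. In PANC-1 most of the genes are high in DMSO replicate 2 and IKE replicate 1. Most lie below their mean in IKE replicates 2 and 4 and in DMSO replicate 1. The CFPAC-1 libraries lie close together.

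Within PANC-1 the abundant glycolytic enzymes varied together from library to library, and replicate libraries of the same group lay further apart than the groups did. ENO1 (ENSG00000074800, chr1:8861000-8878686, minus strand) had 2071, 810, 1692 and 761 FPKM in IKE replicates 1 to 4, against 872 and 2546 FPKM in DMSO replicates 1 and 2. PKM (ENSG00000067225, chr15:72199029-72231591, minus strand) had 1666, 737, 1362 and 834 FPKM in IKE replicates 1 to 4, against 688 and 2207 FPKM in DMSO replicates 1 and 2. Both genes were highest in DMSO replicate 2 and next highest in IKE replicate 1, with the other DMSO library among the 3 lowest.

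GAPDH (ENSG00000111640, chr12:6534517-6538371, plus strand) had 2179, 740, 1767 and 758 FPKM in IKE replicates 1 to 4, against 1290 and 2913 FPKM in DMSO replicates 1 and 2. Ordered by level among all genes of its library, GAPDH was number 81, 266, 111 and 193 in IKE replicates 1 to 4 and number 184 and 44 in the DMSO libraries. PGK1 (ENSG00000102144, chrX:78104248-78129295, plus strand) had 331, 139, 243 and 123 FPKM in IKE replicates 1 to 4, against 135 and 420 FPKM in DMSO replicates 1 and 2. In 7 of the 10 genes, ALDOA, GAPDH, PGK1, ENO1, PKM, LDHA and LDHB, the 3 highest PANC-1 libraries were DMSO replicate 2, IKE replicate 1 and IKE replicate 3, in that order. These 7 genes share the libraries and each library's scaling, so their common order is a single observation of 6 libraries.

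The split between the DMSO replicates ran opposite to the median of abundant genes. All 10 genes were higher in DMSO replicate 2 than in replicate 1, with a median log2 ratio of 1.26, while the 2092 genes averaging 100 FPKM or more had a median of -0.35 and the 12611 genes tested in PANC-1 a median of -0.15. PKM was 3.21-fold higher in replicate 2, PGK1 3.12-fold, ENO1 2.92-fold and GAPDH 2.26-fold, and 98.2%, 98.0%, 97.5% and 93.9% of the tested genes had a smaller log2 ratio. SLC2A1 was 1.32-fold higher, with 75.6% of the tested genes below it. The 10 most abundant other genes held nearly the same share in these 2 libraries, 8.51% in replicate 1 and 8.58% in replicate 2.

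The spread within groups summarises the same values and is not a further observation. The SD of log2 values around the group means had a median of 0.79 over the 10 genes in PANC-1, against 0.49 over the genes tested and 0.43 over those of at least 100 FPKM. LDHA had the highest, at 0.84, and SLC2A1 the lowest, at 0.34. In CFPAC-1 the median over the 10 genes was 0.076, against 0.18 over the genes tested and 0.12 over the abundant ones, and all 10 genes lay below the median of the genes tested. SLC2A1 there had an SD of 0.022, with 1.16% of the genes tested below it.

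Together, the 10 genes took up 0.815%, 0.317%, 0.638% and 0.328% of all FPKM in the PANC-1 IKE libraries (replicates 1 to 4). In PANC-1 DMSO replicates 1 and 2 they took up 0.404% and 1.13%. The groups overlapped, and DMSO replicate 1 lay among the lower IKE libraries. In CFPAC-1 the share was 1.06% and 1.10% with IKE and 1.14% and 1.05% with DMSO. PANC-1 DMSO replicate 2 thus lay within the range of CFPAC-1 and the other PANC-1 libraries lay below it. The 2 IKE libraries with the lowest share, replicates 2 and 4, were also those in which the 10 most abundant other genes held the most, at 16.2% and 23.1%. With those 10 genes of each library taken out of the sum, the share was 0.899%, 0.378%, 0.726% and 0.427% in IKE replicates 1 to 4 and 0.441% and 1.24% in the DMSO libraries; DMSO replicate 1 and IKE replicates 2 and 4 again had the 3 lowest shares.

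**Figure D3:**
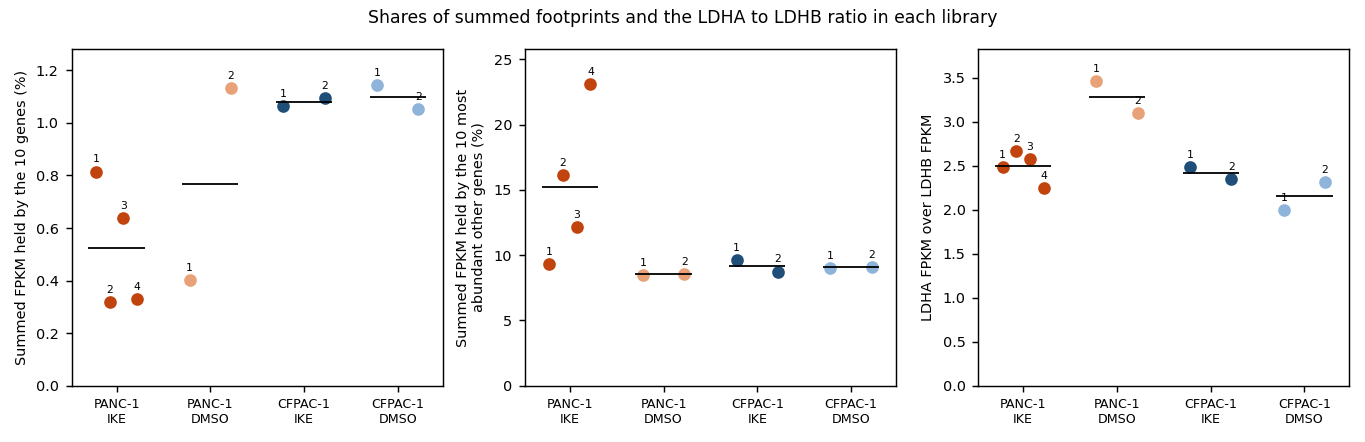
Percent of each library's summed FPKM held by the 10 genes (left) and by the 10 most abundant other genes (middle), and LDHA FPKM divided by LDHB FPKM (right), with replicate numbers beside the points and a bar for the group mean. The LDHA to LDHB ratio lies between 2.24 and 2.66 in the PANC-1 IKE libraries and at 3.10 and 3.46 in the PANC-1 DMSO libraries.

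The second comparison asked which of the genes changed in PANC-1 cells that survived 1 µM IKE. None of the 10 was called (limma adjusted p from 0.573 to 0.909), and 0 had an unadjusted p under 0.05, where 0.0159% of the 12611 genes tested were called and 11.1% had an unadjusted p under 0.05. IKE and DMSO values overlapped for all 10 genes, while they did not overlap for 23.1% of the genes tested. The log2 fold changes were below 0 for 8 genes, with a median of -0.33, against -0.03 over the genes tested and -0.21 over those of at least 100 FPKM.

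The carrier SLC2A1 had 46.5, 29.7, 46.1 and 53.3 FPKM in IKE replicates 1 to 4, against 48.3 and 63.8 FPKM in DMSO, a log2 fold change of -0.36 with a 95% interval of -1.13 to 0.41. HK2 had 2.52, 2.90, 3.79 and 3.90 FPKM in IKE replicates 1 to 4, against 0.72 and 3.66 FPKM in DMSO, a log2 fold change of 0.58 with an interval of -0.64 to 1.80. This HK2 value was 0.92 with a pseudocount of 0.1 and 0.23 with 5, and it was -0.14 without DMSO replicate 1 and 1.30 without DMSO replicate 2. PFKP had 170, 126, 149 and 156 FPKM in IKE replicates 1 to 4, against 85.7 and 209 FPKM in DMSO, a log2 fold change of 0.15 with an interval of -0.69 to 1.00. For PFKP all 4 IKE libraries lay between the DMSO libraries, while 3 SLC2A1 values lay below both and 2 HK2 values above both.

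LDHA (ENSG00000134333, chr11:18394563-18408425, plus strand), the subunit that favours lactate formation, had 1347, 581, 964 and 342 FPKM in IKE replicates 1 to 4, against 859 and 1838 FPKM in DMSO, with a fitted log2 change of -0.82 ± 0.54 (SE) at limma's adjusted p = 0.573. IKE replicate 1 lay above DMSO replicate 1 and the other DMSO library lay above all 4, so the groups overlapped. LDHB (ENSG00000111716, chr12:21635342-21657842, minus strand) had 542, 218, 374 and 153 FPKM in IKE replicates 1 to 4, against 248 and 593 FPKM in DMSO, with a fitted log2 change of -0.42 ± 0.52 (SE) at limma's adjusted p = 0.771. ALDOA (ENSG00000149925, chr16:30064279-30070420, plus strand) had 2112, 941, 1852 and 1051 FPKM in IKE replicates 1 to 4, against 1449 and 2577 FPKM in DMSO. Its log2 fold change was -0.46 with an interval of -1.42 to 0.50, with GAPDH at -0.68, PGK1 at -0.30, ENO1 at -0.30 and PKM at -0.18. The intervals of these 5 genes reached from -1.84 at the lowest to 0.93 at the highest, so changes of more than 2-fold downwards are not bounded away.

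The direction of several of these values depended on which libraries were in the fit. The median log2 fold change of the 10 genes was -1.03 without DMSO replicate 1 and 0.34 without DMSO replicate 2, while the median over all genes tested was -0.01 and -0.08. Without DMSO replicate 2, PGK1, ENO1, PKM and LDHB stood above 0, at 0.52, 0.48, 0.66 and 0.21, while SLC2A1, ALDOA, GAPDH and LDHA stayed below 0 without either DMSO library. The median was 0.24 without IKE replicates 2 and 4 together, the 2 libraries with the fewest genes above 0, a setting chosen after seeing the data. None of the 10 genes was called in these fits.

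**Figure D4:**
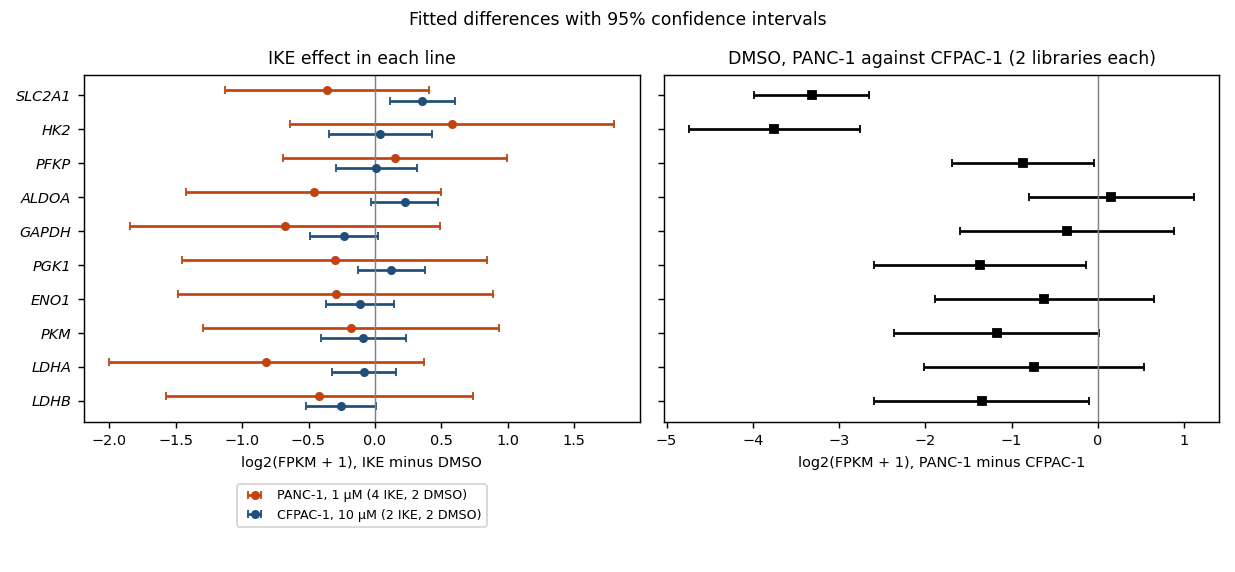
Fitted differences on the log2(FPKM + 1) scale with 95% confidence intervals from limma, for IKE minus DMSO in each line (left; PANC-1 above CFPAC-1 for each gene) and PANC-1 minus CFPAC-1 in DMSO (right). In the left panel the intervals of all genes but SLC2A1 in CFPAC-1 include 0, and in the right panel SLC2A1 and HK2 stand apart at -3.32 and -3.75.

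The third comparison asked the same of CFPAC-1 cells that survived 10 µM IKE, where the libraries of a group lay close together. None of the 10 genes was called (limma adjusted p from 0.268 to 0.984), where 0.127% of the 12563 genes tested were called, and 1 gene, SLC2A1, had an unadjusted p under 0.05, where 12.3% of genes did. The median log2 fold change was -0.04, against -0.02 over the genes tested. For 3 genes both IKE libraries lay above both DMSO libraries, as for 20.8% of the genes tested, and for 4 both lay below, as for 22.9%; 43.7% of genes had no overlap either way.

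SLC2A1 had 709 and 730 FPKM with IKE and 559 and 564 FPKM with DMSO. Both IKE libraries lay above both DMSO libraries, and the log2 fold change was 0.36 ± 0.10 (SE) with a 95% interval of 0.11 to 0.60. With limma, the adjusted p was 0.268 over all genes tested. ALDOA had 1919 and 2129 FPKM with IKE and 1731 and 1733 FPKM with DMSO, a log2 fold change of 0.22 with an interval of -0.03 to 0.48. PGK1 had 646 and 697 FPKM with IKE and 618 and 614 FPKM with DMSO, a log2 fold change of 0.12 with an interval of -0.13 to 0.37. These were the 3 genes higher in both IKE libraries.

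LDHB had 789 and 850 FPKM with IKE and 1022 and 935 FPKM with DMSO, a log2 fold change of -0.25 with an interval of -0.52 to 0.01. GAPDH had 2028 and 2197 FPKM with IKE and 2564 and 2404 FPKM with DMSO, a log2 fold change of -0.23 with an interval of -0.49 to 0.02. ENO1 had 2119 and 2117 FPKM with IKE and 2412 and 2168 FPKM with DMSO, and LDHA had 1963 and 1993 FPKM with IKE and 2033 and 2163 FPKM with DMSO, with log2 fold changes of -0.11 and -0.08. These 4 genes were lower in both IKE libraries.

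HK2, PFKP and PKM overlapped between the CFPAC-1 groups. HK2 had 38.6 and 37.7 FPKM with IKE and 40.6 and 33.9 FPKM with DMSO, PFKP had 257 and 237 FPKM with IKE and 263 and 228 FPKM with DMSO, and PKM had 2699 and 2534 FPKM with IKE and 3103 and 2493 FPKM with DMSO. The 95% intervals of all 10 genes lay between -0.52 and 0.60 on the log2 scale, so a 2-fold change in either direction lay outside the interval of each. These intervals assume that the spread between 2 libraries of a group stands for the spread of the cells.

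None of the 10 genes was called when the IKE effects of both lines were set against each other (limma adjusted p from 0.647 to 0.983; 0 genes with an unadjusted p under 0.05), where 0.0305% of 13125 genes were called and 8.41% had an unadjusted p under 0.05. SLC2A1 had the smallest p, with a log2 fold change of -0.36 in PANC-1 and 0.36 in CFPAC-1 and a difference of -0.72 ± 0.40 (SE; limma adjusted p = 0.647). Line and dose change together in this comparison.

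Ratios between genes of the same library are free of whatever scales all of them alike. LDHA over LDHB, the ratio of the subunits that share 1 enzyme, was 2.49, 2.66, 2.58 and 2.24 in the PANC-1 IKE libraries (replicates 1 to 4), against 3.46 and 3.10 in PANC-1 DMSO. It was 2.49 and 2.34 in CFPAC-1 IKE, against 1.99 and 2.31 in CFPAC-1 DMSO. All 4 PANC-1 IKE libraries lay below both DMSO libraries, whereas both CFPAC-1 IKE libraries lay above both DMSO libraries. The mean log2 difference was -0.40 in PANC-1 (two-sided exact permutation p = 0.0667, the smallest that 4 against 2 libraries allow) and 0.17 in CFPAC-1 (two-sided exact permutation p = 0.333, the smallest that 2 against 2 allow). Neither design can reach 0.05. Of the 45 ratios between 2 of the 10 genes, 8 did not overlap between the groups in PANC-1 (17.8%), where 22.9% of the ratios between any 2 of 11044 genes did not. In CFPAC-1, 31 did not overlap (68.9%), where 42.5% of all such ratios did not. LDHA over LDHB was the single ratio of the 45 without overlap in both lines in opposite directions (2.22%), where 5.75% of all such ratios had this pattern, and 3 had no overlap in both in the same direction (6.67%), where 4.08% of all did. This ratio was picked out after the values had been seen. Ratios that share a gene are not independent.

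The lines were set apart by SLC2A1 within libraries too. SLC2A1 stood at 2.14%, 4.02%, 2.61% and 7.03% of the GAPDH level in PANC-1 IKE replicates 1 to 4 and at 3.74% and 2.19% in PANC-1 DMSO. In CFPAC-1 it stood at 34.9% and 33.2% with IKE and at 21.8% and 23.5% with DMSO. The highest PANC-1 library therefore lay below the lowest CFPAC-1 library by this measure as well. In CFPAC-1 the IKE libraries lay above the DMSO libraries, but GAPDH itself was lower in both IKE libraries. There, 42.5% of all gene ratios did not overlap between IKE and DMSO. HK2 stood at 0.116%, 0.392%, 0.215% and 0.515% of GAPDH in PANC-1 IKE replicates 1 to 4 and at 0.0558% and 0.126% in PANC-1 DMSO, and at 1.90% and 1.71% in CFPAC-1 IKE and 1.58% and 1.41% in CFPAC-1 DMSO.

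Ordered by level, HK2 was the lowest of the 10 genes in every library. In CFPAC-1 PKM came first in all 4 libraries, and SLC2A1 ranked above PFKP in each. In PANC-1 GAPDH or ALDOA came first in all 6 libraries, SLC2A1 was the second lowest in all 6, and PKM lay below ENO1 in 5 of 6. Among neighbours in the PANC-1 IKE order, only PFKP over SLC2A1 and SLC2A1 over HK2 had ranges that did not overlap, although LDHA lay below ALDOA, GAPDH, ENO1 and PKM within each of the 4 libraries. In CFPAC-1 IKE, ENO1, GAPDH, ALDOA and LDHA overlapped with their neighbours. In CFPAC-1 DMSO this held for PKM, GAPDH and ENO1.

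GAPDH, LDHA and PKM have processed copies in the genome whose reads may be split or shared in counting. RefSeq lists 65 pseudogenes by the symbol of GAPDH, 6 by that of LDHA, 5 by that of PKM and 4 by that of ENO1. It lists 3 by that of LDHB, 2 each by those of ALDOA and PGK1, 1 by that of HK2 and 0 by those of PFKP and SLC2A1. How the authors' counting treated reads that fit several places is not stated in any source used here. Levels of the genes with listed pseudogenes may be less certain than those of SLC2A1 and PFKP, which was not tested. PKM is counted as 1 gene, and its M1 and M2 splice forms cannot be told apart in these values.

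Across all 10 libraries, the genes whose log2 values followed the mean of the 10 genes most closely were ENSG00000114573, ENSG00000171345 and ENSG00000214753, with Pearson correlations of 0.994, 0.992 and 0.991 among 6589 genes of at least 20 FPKM. The libraries share lines and scaling, so these are descriptions of a shared profile.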

How the data were processed

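Ribosome-protected fragments were sequenced in 10 libraries, and the values used are FPKM per gene, as deposited by the authors. GRCh38, RSEM, STAR, Bowtie2 2.2.8, fastp and DESeq2 appear, without roles, in the submitters' processing notes; no source used here states the annotation, the strand setting or the footprint lengths kept. From there, log2(FPKM + 1) was fitted with limma 3.58.1 in R 4.3.3 (lmFit, eBayes with a mean-variance trend) over genes averaging 1 FPKM or more, with Benjamini-Hochberg adjustment over all genes tested. A fold change on this scale understates that of low genes. Each line was fitted alone for IKE against DMSO, and all 4 groups together for the untreated lines and for the difference of effects. FPKM are not counts and no depth is known, so no count test was run and no counting interval is given. Replicates are labelled as biological, with no further word on cultures, so p-values cover the spread between these libraries, which may be partly technical. Deviations of same-numbered replicates 1 and 2 had correlations of 0.05 in CFPAC-1, -0.205 in PANC-1 and -0.055 between the DMSO groups. None was clearly positive, so the main fits hold no replicate block. PANC-1 IKE replicates 3 and 4 have no same-numbered DMSO library and did not enter this check. Each of the 10 genes is named, and the 3 genes with the most similar profile by ID. The genes and lists were chosen with earlier results of these data known; 13 lists of other genes were not analysed here because no ID could be matched to a name. Ratios of gene pairs were set against those of all pairs of genes averaging 1 FPKM or more and above 0 in every library. The fitting script was tested on simulated data. Values were summarised in Python 3.11.15 with pandas 2.3.3. Alternatives covered the pseudocount, the filter, scaling, library weights, the trend, the block and each library left out.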

Additional observations from a re-analysis of the deposited data

Results flagged for a closer look

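The ratio of LDHA to LDHB in the IKE libraries lay on opposite sides of the DMSO libraries in the 2 lines, which drew attention to it. It was lower in all 4 PANC-1 IKE libraries than in both PANC-1 DMSO libraries and higher in both CFPAC-1 IKE libraries than in both CFPAC-1 DMSO libraries. The CFPAC-1 margin was narrow, with IKE replicate 2 at 2.34 against DMSO replicates 1 and 2 at 1.99 and 2.31. The exact permutation p was 0.0667 in PANC-1 and 0.333 in CFPAC-1, the smallest that each design allows. The mean log2 difference was -0.40 in PANC-1 and 0.17 in CFPAC-1, so the lines differed by -0.57 on the log2 scale. That difference was not tested, the ratio was 1 of 45 examined, and 5.75% of the ratios between any 2 of 11044 genes had no overlap in both lines in opposite directions. Line and IKE dose change together.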

How the results depend on the processing

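None of the 10 genes was called for IKE in either line, or for the difference between lines, under any alternative run; HK2 was not tested in PANC-1 with a minimum mean of 5 FPKM, which it did not reach. For the untreated lines the count of 2 was 5 with library weights, over all libraries or per line, and 3 with quantile normalization, where PKM was called at -1.53 (limma adjusted p = 0.0461, against a range of 0.0145 to 0.665 with 1 library left out). It ranged from 2 to 6 with 1 library left out. With the replicate block, 2 genes were called between the untreated lines and 0 in the other comparisons, and the difference of effects for LDHB turned to 0.10; over all genes the CFPAC-1 IKE calls were 65 with the block, against 16 without it.

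Several directions in PANC-1 and in the difference of effects were not stable, and the cause was not tested. With library weights the PANC-1 values were 0.02 for ENO1 and 0.04 for PKM, and the differences were 0.14 for ENO1, 0.13 for PKM and 0.15 for LDHB. Quantile normalization gave differences of 0.03 for ENO1 and 0.09 for PKM, and -0.08 for ALDOA between the untreated lines; it moved the median of all genes there to 0.10, against -0.03. With PANC-1 IKE replicates 2 and 4 left out, chosen after seeing the data, PANC-1 values were 0.03 for ALDOA, 0.02 for GAPDH, 0.25 for PGK1, 0.33 for ENO1, 0.29 for PKM and 0.23 for LDHB, and differences were 0.25 for GAPDH, 0.13 for PGK1, 0.44 for ENO1, 0.38 for PKM and 0.49 for LDHB.

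With 1 library left out, PANC-1 values ranged from -1.07 to 0.48 for ENO1, -1.02 to 0.66 for PKM, -1.12 to 0.52 for PGK1, -1.04 to 0.21 for LDHB, -0.14 to 1.30 for HK2 and -0.48 to 0.79 for PFKP. CFPAC-1 values ranged from -0.09 to 0.16 for HK2, -0.09 to 0.11 for PFKP and -0.25 to 0.07 for PKM. Differences ranged from -0.96 to 0.59 for ENO1, -1.03 to 0.14 for GAPDH, -0.18 to 1.26 for HK2, -0.79 to 0.46 for LDHB, -0.50 to 0.78 for PFKP, -1.24 to 0.39 for PGK1 and -0.93 to 0.75 for PKM. Between the untreated lines they ranged from -0.26 to 0.57 for ALDOA, -1.39 to 0.15 for ENO1 and -0.94 to 0.23 for GAPDH. Where 1 library is left in a group, its spread is taken from the other group or groups.

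The share of summed FPKM held by the 10 genes, without the 10 most abundant other genes in the sum, was 1.19% in CFPAC-1 IKE and 1.21% in CFPAC-1 DMSO. Over all genes, untreated calls numbered 2474 and 2485 without CFPAC-1 DMSO replicate 1 or 2, against 4410. Depth is unknown, so what it limits could not be measured.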
